A study of Mus musculus with 6 samples.

Results

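The genes described here are the collagen chain genes, taken as every row of the UMI table whose symbol has the form Col, a number, a and a number, with at least 1 UMI over all cells. They were 38 of 20822 genes, and their levels were compared over 10 cell types and between genotypes. Drop-seq libraries were made from retinas of P14 mouse pups with oxygen-induced retinopathy (OIR), a model in which pups kept with CD1 foster mothers in high oxygen return to room air and grow new retinal vessels. Single-cell suspensions enriched for endothelial cells (ECs) with CD31 antibody beads came from eNOS+/+ (C57BL/6J) or eNOS-/- pups, which lack endothelial nitric oxide synthase, with 3 replicates per genotype. Both genotypes went through the same oxygen treatment, so no library came from an untreated retina, and 3 to 5 retinas were pooled in each replicate. Because of this enrichment, the shares of cell types are not those of a retina.

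Collagens are proteins of the extracellular matrix in which several chains wind around each other into a long helix, and each chain has its own gene. Type IV chains form the network of basement membranes, the sheets on which vessel walls and the inner retinal surface rest, and types XV and XVIII are proteoglycans attached to those sheets. Fibril-forming chains such as those of types I, II, III, V and XI build the fibrils of connective tissue and of the vitreous, type IX sits on the surface of type II fibrils, and in the eye vitreous collagens are known to be made by the ciliary epithelium.

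In Drop-seq each captured RNA molecule carries a unique molecular identifier (UMI), and reads come from the 3′ end of the RNA. A UMI therefore counts 1 captured molecule, and levels are given as UMIs per 1000000 UMIs (CPM) of all cells of 1 type in 1 replicate, not divided by gene length. Replicates with fewer than 10 cells of a type were left out of that type. Cell types are those of the authors' annotation, which was clustered from these same UMIs, so differences between cell types are described without a test.

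Type IV chain genes lie in pairs on the mouse genome (GRCm38, GENCODE annotation), each pair head to head. Col4a1 (chr8:11198423-11312826, minus strand) and Col4a2 (chr8:11312805-11449287, plus strand) start 21 bases apart and share 22 bases. Col4a3 (chr1:82586921-82722059, plus strand) starts 72 bases from Col4a4, and Col4a5 and Col4a6 on chromosome X start 1309 bases apart. Col4a1 and Col4a2 kept a near-constant ratio over the vascular cell types, whereas Col4a4 was nearly undetected beside Col4a3, so promoter windows from both pairs are shown, with those of Col9a1, the chain with the highest level of any member. Windows run from 250 bases before to 50 bases after the start (RefSeq, GRCm38.p6, 5′ to 3′ on the gene's strand), and capitals mark each GC box (GGGCGG) or CCAAT box (CCAAT) found on either strand. Of the 38 members, 29 were matched in the RefSeq promoters used here, with 32 windows.
Col4a1, chr8:11312777-11313076, minus strand: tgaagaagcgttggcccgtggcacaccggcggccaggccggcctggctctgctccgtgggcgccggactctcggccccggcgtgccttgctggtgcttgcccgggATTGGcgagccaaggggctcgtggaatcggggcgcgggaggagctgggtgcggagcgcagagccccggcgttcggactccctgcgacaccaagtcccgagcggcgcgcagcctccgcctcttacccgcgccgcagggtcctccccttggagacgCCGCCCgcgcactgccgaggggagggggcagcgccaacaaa
Col4a2, chr8:11312555-11312854, plus strand: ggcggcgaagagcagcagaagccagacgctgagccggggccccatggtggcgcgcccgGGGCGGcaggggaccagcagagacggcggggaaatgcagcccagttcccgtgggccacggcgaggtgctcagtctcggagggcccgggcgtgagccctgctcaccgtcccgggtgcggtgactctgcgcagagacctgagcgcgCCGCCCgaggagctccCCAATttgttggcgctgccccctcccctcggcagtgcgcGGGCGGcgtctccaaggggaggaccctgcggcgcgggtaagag
Col4a4, chr1:82586800-82587099, minus strand: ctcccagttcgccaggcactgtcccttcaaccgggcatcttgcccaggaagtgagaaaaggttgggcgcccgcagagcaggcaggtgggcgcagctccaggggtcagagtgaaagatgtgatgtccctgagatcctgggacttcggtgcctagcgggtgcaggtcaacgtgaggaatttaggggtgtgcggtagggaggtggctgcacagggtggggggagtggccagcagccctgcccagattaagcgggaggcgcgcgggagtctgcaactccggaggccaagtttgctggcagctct
Col9a1, chr1:24177360-24177659, plus strand: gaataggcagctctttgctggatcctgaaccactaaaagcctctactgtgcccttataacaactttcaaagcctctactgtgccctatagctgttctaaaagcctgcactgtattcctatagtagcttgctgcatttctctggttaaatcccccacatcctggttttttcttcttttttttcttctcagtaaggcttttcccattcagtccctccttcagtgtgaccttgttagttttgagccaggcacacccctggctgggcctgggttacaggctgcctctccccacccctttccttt
Col9a1 second start, chr1:24194953-24195252, plus strand: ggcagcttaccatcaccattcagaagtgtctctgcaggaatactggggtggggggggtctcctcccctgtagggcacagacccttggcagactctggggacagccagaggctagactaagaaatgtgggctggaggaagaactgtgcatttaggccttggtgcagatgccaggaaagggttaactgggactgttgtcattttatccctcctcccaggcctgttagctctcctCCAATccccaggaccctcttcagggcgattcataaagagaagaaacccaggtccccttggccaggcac

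The Col4a1 and Col4a2 windows shared 78 bases, read from opposite strands. Col4a1 held 1 GC box and 1 CCAAT box, Col4a2 held 3 GC boxes and 1 CCAAT box, and 1 GC box lay in both windows. The Col4a4 window, in which Col4a3 also starts, held neither motif, and of the Col9a1 windows the first held neither and the second 1 CCAAT box. None of these windows held TATAAA. Over all 32851 promoter windows of this length, GGGCGG was found in 35.7%, CCAAT in 37.4% and TATAAA in 13.6%, on either strand. A match here is a description of letters and does not show a bound factor.

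The table held 8944 cells and 10361314 UMIs, from 613 to 1399 cells per eNOS+/+ replicate and from 415 to 3710 per eNOS-/- replicate, with 617246 to 3350799 UMIs per replicate. Collagen chain genes took 44751 UMIs, 0.4319% of the total and 0.342 to 0.544% of each replicate. Replicates shared at most 1 cell barcode, in 3 of 15 pairs. All 613 cells of eNOS+/+ replicate 2 carried the library name of replicate 1 in the column from before merging, and the replicate column was used. Nos3, the gene targeted in eNOS-/- mice, was at 19.4, 36.6 and 23.6 CPM in ECs of the replicates labelled eNOS+/+ and at 21.2, 16.1 and 32.8 CPM in those labelled eNOS-/-. These levels overlapped, so the UMIs do not check the genotype, and every genotype direction rests on the labels.

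Few chains made up most of the collagen RNA. Col4a1 had 22937 UMIs (51.3% of the members' UMIs), and Col4a1, Col4a2, Col18a1 and Col9a1 together had 90.1%. In all, 15 members reached 100 UMIs and held 98.3% of the members' UMIs, 9 had 20 to 99 UMIs and 14 had fewer than 20. By class, 77.9% of the UMIs came from type IV chains, 12.3% from types XV and XVIII, 4.58% from fibril-associated chains such as type IX and 3.67% from fibril-forming chains.

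The makeup differed between cell types. Type IV chains gave 84.3% of the members' UMIs in ECs and 69.2% in Mural cells, the pericytes and smooth muscle cells around vessels, where fibril-forming chains gave 24.2% against 1.65% in ECs. In Optc+ cells, named in the annotation for opticin, fibril-associated chains gave 63.6%, types XV and XVIII 12.7%, fibril-forming chains 10.1% and type IV chains 7.77%. Neuroglia had 52.7% from fibril-associated, 22.6% from fibril-forming and 13.3% from transmembrane chains. Of the 38 members, the mean level was highest in Optc+ cells for 11, in Mural cells for 10 and in Tip ECs for 6.

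**Figure D1:**
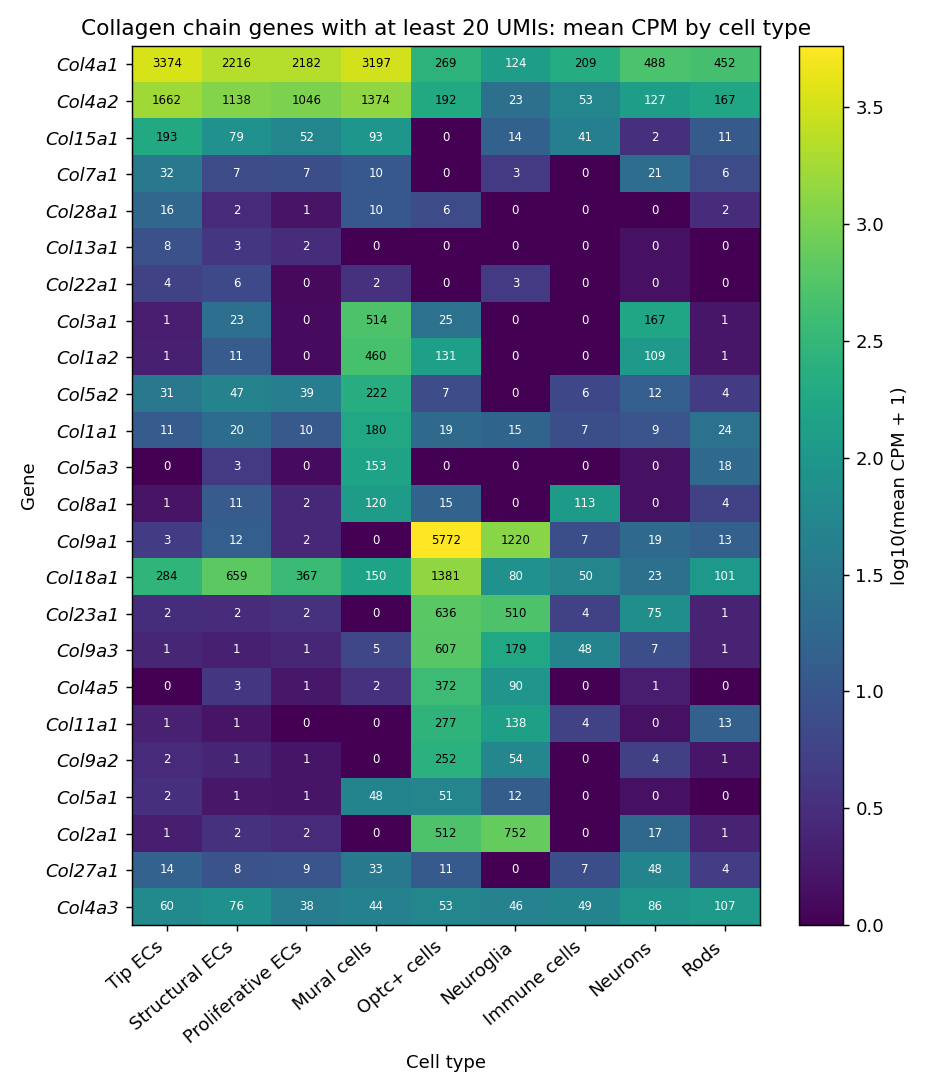
Mean CPM of the collagen chain genes with at least 20 UMIs (rows) in 9 cell types (columns), averaged over replicates with at least 10 cells, with color on a log10(CPM + 1) scale and the mean CPM printed in each cell. Col4a1 and Col4a2 are high in the 3 EC subtypes and Mural cells, Col9a1 reaches 5772 CPM in Optc+ cells, and Col1a2 and Col3a1 are highest in Mural cells.

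Markers of each cell type were checked before the levels were read. The summed level of 8 EC markers was 6271 to 7554 CPM in ECs, and 9 mural markers summed to 15199 to 27783 CPM in Mural cells. In Optc+ cells 4 ciliary epithelium markers, including Optc, summed to 2712 to 8790 CPM, and 6 Müller glia markers summed to 16662 to 23824 CPM in Neuroglia. No list had a gene at 0 in the type it marks. The Müller glia list was also high in Immune cells, at 18759 to 24022 CPM, where Apoe made up most of it, and in Optc+ cells, at 8448 to 13204 CPM, above the ciliary list. Red blood cell genes in Structural ECs ranged from 34.9 to 22522 CPM over the replicates. Mural cells were few, numbering 3, 30 and 41 in the eNOS+/+ against 36, 47 and 57 in the eNOS-/- libraries, and Optc+ cells numbered 15, 24 and 49 against 24, 40 and 5. Mural cells of eNOS+/+ replicate 1, Optc+ cells of eNOS-/- replicate 3 and the absent Neuroglia of that replicate gave no level.

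Col4a1, the chain that pairs with Col4a2 in the common type IV molecule of vessel basement membranes, was the most abundant member in ECs. In Tip ECs, the sprouting cells at the vascular front, it was at 3060, 3825 and 3545 CPM in the eNOS+/+ replicates and at 4190, 3470 and 2153 CPM in the eNOS-/- replicates. In Structural ECs it was at 1707, 2535 and 2044 CPM against 2573, 2081 and 2358 CPM. The genotypes overlapped in both, and eNOS-/- replicate 3 had the lowest Tip level and was the replicate in which Tip ECs stood below Structural ECs. In that replicate, 54 of 186 Structural ECs had at least 2 UMIs of 9 mural markers and held 341 of the 631 Col4a1 UMIs, against 0.299 to 2.87% of Structural ECs elsewhere, and without such cells its Structural level was 1843 CPM.

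Over the 6 replicates the mean Col4a1 level was 3374 ± 707 CPM (SD, n = 6) for Tip, 2216 ± 334 for Structural and 2182 ± 386 for Proliferative ECs. Mural cells, at 2978 and 2915 CPM in the eNOS+/+ replicates and 4271, 3324 and 2498 CPM in the eNOS-/- replicates, averaged 3197 ± 668 CPM (SD, n = 5). Within a replicate, Tip ECs were above Structural ECs in 5 of 6 (median ratio 1.65, range 0.913 to 1.79) and Mural cells were above Structural ECs in 5 of 5 (median 1.43). Tip ECs and Mural cells did not differ beyond their spread (median Mural-to-Tip ratio 0.958), nor did Structural and Proliferative ECs (median ratio 1.00, above 1 in 3 of 6).

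The means of Col4a2 ran in the same order. It was at 1913, 1677 and 1810 CPM in Tip ECs of the eNOS+/+ replicates and at 1773, 1606 and 1192 CPM in those of the eNOS-/- replicates, with a mean of 1662 ± 253 (SD, n = 6). The means were 1375 ± 179 CPM (n = 5) in Mural cells, 1138 ± 101 (n = 6) in Structural ECs and 1047 ± 129 (n = 6) in Proliferative ECs. Tip ECs were above Structural ECs in 6 of 6 replicates (ratio 1.15 to 1.58) and above Mural cells in 5 of 5 (median Mural-to-Tip ratio 0.862), although the ranges of Tip ECs and Mural cells overlapped.

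The Col4a1 share of the UMIs of both chains varied little among the vascular types. It was 67.1% in ECs (95% Wilson interval 66.6 to 67.6, which, like the other intervals on shares, covers counting error only), 65.9% in Structural, 67.7% in Tip and 68.5% in Proliferative ECs, and 71.1% in Mural cells (68.7 to 73.4). Across the 10 cell types, with UMIs pooled over replicates and levels on a log scale, Col4a1 and Col4a2 had a Pearson correlation of 0.96. This is a description over types from the same libraries. On that scale no other pair of the 15 members with at least 100 UMIs was more alike. Col4a3 and Col4a4, also head to head, had 677 and 11 UMIs. Col4a5 and Col4a6 had 98 and 16 UMIs, of which 79 and 11 were in Optc+ cells.

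The third type IV chain with over 100 UMIs, Col4a3, a chain known from kidney, inner ear and eye basement membranes, had no preferred cell type. Leaving out Cones, with 1 replicate of at least 10 cells and no UMI of it there, its mean lay between 38.0 CPM in Proliferative ECs and 107 CPM in Rods (SD 70.1, n = 5), and the ranges over replicates of these types overlapped. Its last 30132 bases overlap the gene C430014B12Rik on the other strand, which had 27 UMIs. The strand setting of the counting is not given in the sources used here, so UMIs of such partners cannot be told apart with certainty.

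Col18a1, whose protein is the precursor of endostatin, was lowest in Tip ECs among the EC subtypes, where the mean of Col4a1 was highest. In Structural ECs it was at 731, 818 and 550.5 CPM in the eNOS+/+ replicates and at 969.8, 476 and 411 CPM in the eNOS-/- replicates. In Tip ECs the values were 244, 449 and 311 CPM against 301, 271 and 126 CPM. Structural ECs were higher in 6 of 6 replicates, and the median Tip-to-Structural ratio was 0.441 (range 0.307 to 0.57). Proliferative ECs lay between them at 367 ± 70.6 CPM (SD, n = 6), and Mural cells were lowest of these 4 at 149.8 ± 68.7 (n = 5).

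The highest Col18a1 level was outside the vessels, in Optc+ cells. It was 1959.9, 1402 and 1653 CPM in the eNOS+/+ replicates and 1087 and 801 CPM in eNOS-/- replicates 1 and 2, above Structural ECs of the same replicate in 5 of 5 (median ratio 1.71). The genotypes did not overlap, as given with the genotype comparisons. The last 8825 bases of Col18a1 overlap Slc19a1 on the other strand, and that gene had 136 UMIs against 4548 for Col18a1.

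Col15a1, the other multiplexin, was a Tip EC gene among the EC subtypes. In Tip ECs it was at 179.7, 278 and 158 CPM in the eNOS+/+ replicates and at 213, 264 and 63.1 CPM in the eNOS-/- replicates, a mean of 193 ± 78.7 (SD, n = 6). Structural ECs averaged 79.0 ± 39.5 CPM and Proliferative ECs 52.4 ± 16.8 CPM. Tip ECs were above Structural ECs in 6 of 6 replicates, with a median ratio of 2.92. In Mural cells the values ranged from 0 to 248 CPM, and Optc+ cells had 0 UMIs of Col15a1, which allows up to 12.7 CPM.

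Col7a1, which forms the anchoring fibrils of epithelial basement membranes, was low and stood higher in Tip than in Structural ECs. It was at 32.3, 32.1 and 29.5 CPM in Tip ECs of the eNOS+/+ replicates and at 37.9, 36.3 and 21.0 CPM in those of the eNOS-/- replicates. Structural ECs were lower in 6 of 6 replicates, between 0.873 and 18.7 CPM, with a median Tip-to-Structural ratio of 7.86. The levels in Tip and Structural ECs rest on 75 and 18 UMIs. Proliferative ECs ranged from 0 to 38.4 CPM on 5 UMIs. Neurons averaged 21.1 ± 21.7 CPM (SD, n = 6), from 0 to 59.2 CPM on 15 UMIs, so Col7a1 was not particular to Tip ECs.

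**Figure D2:**
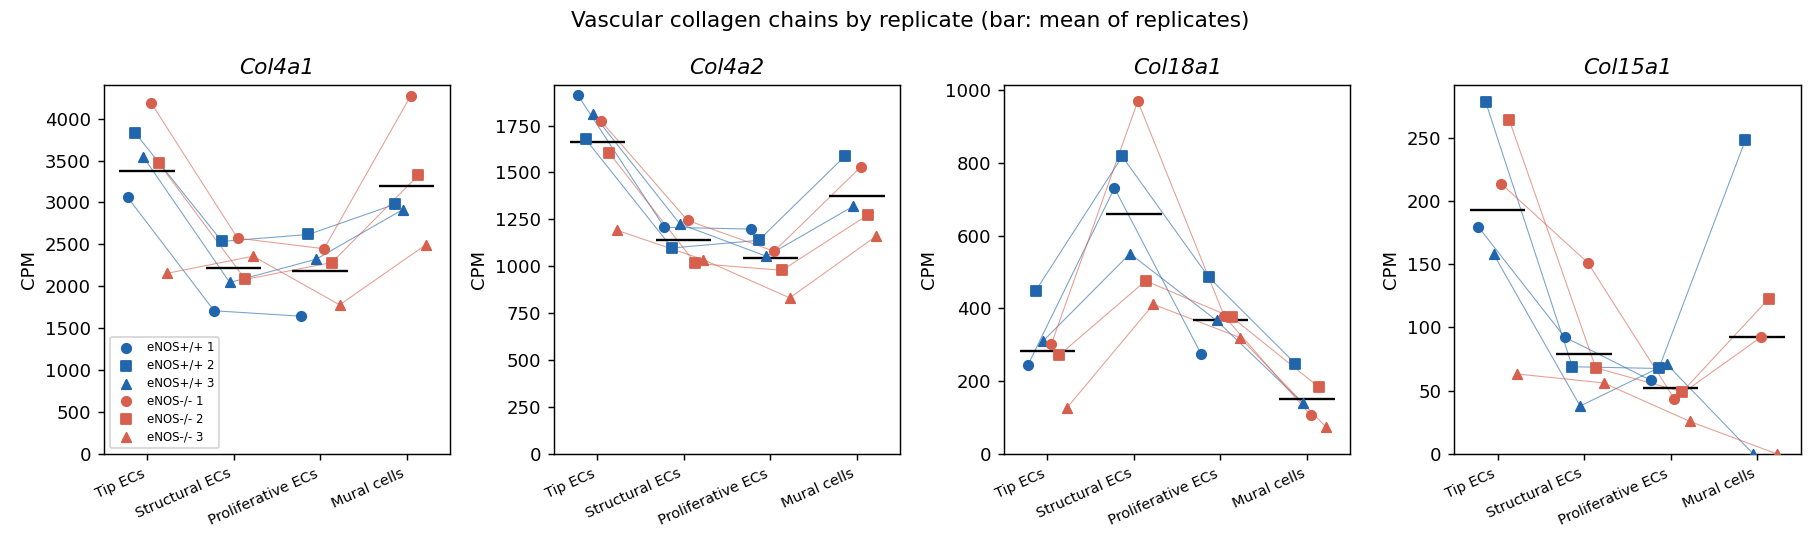
CPM of Col4a1, Col4a2, Col18a1 and Col15a1 (1 panel each, linear axis from 0) in Tip, Structural and Proliferative ECs and Mural cells, with 1 point per replicate (blue eNOS+/+, red eNOS-/-), lines joining the cell types of a replicate and a bar at the mean. Col4a2 and Col15a1 fall from Tip to Structural ECs in 6 of 6 replicates and Col4a1 in 5 of 6, while Col18a1 rises in 6 of 6.

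Shares of cells with a UMI were compared with every cell drawn down to 500 UMIs, a step that left out 4083 of the 8944 cells. Col4a1 was then found in 74.0% of Tip, 57.8% of Structural and 60.3% of Proliferative ECs and in 68.0% of Mural cells, against 10.9% of Rods, photoreceptors that should lack these chains. Undrawn, the shares were 84.2, 57.2, 71.1, 71.0 and 10.3%, with median depths of 1007, 491, 964, 828 and 361 UMIs per cell. Col18a1 was found after drawing down in 24.6% of Structural ECs, 11.3% of Tip ECs and 40.5% of Optc+ cells against 3.56% of Rods, where the undrawn shares were 26.9, 26.1, 56.1 and 2.92%. At unequal depth the EC shares of Col18a1 thus looked alike.

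Levels of the vascular chains outside vessels were set beside those of 8 EC markers, since free RNA gives UMIs in every droplet. For this, UMIs were pooled over replicates. The EC markers were at 11.2% (Optc+ cells) to 25.97% (Neuroglia) of their EC level in Optc+ cells, Neuroglia, Immune cells, Neurons and Rods. Col4a1 was at 5.07 to 13.8% and Col4a2 at 4.03 to 13.6% of their EC level there. Within a type, pooled Col4a1 stood below the EC markers in all 5, and Col4a2 in 4, with Optc+ cells the exception (13.6% against 11.2%). By replicate this order did not always hold. In Rods, Col4a1 was above the markers in eNOS+/+ replicate 3 (50.2% against 46.0%) and eNOS-/- replicate 2 (22.3% against 22.0%). It was below them in eNOS+/+ replicate 1 and eNOS-/- replicates 1 and 3. As means over replicates, Col4a1 was at 488 CPM in Neurons and 2528 CPM in ECs, and the markers at 1018 and 6980 CPM. In Mural cells the EC markers were at 23.8%, but Col4a1 was at 124%, Col4a2 at 103%, Col15a1 at 62.4% and Col5a2 at 527% of the EC level. Col18a1 was at 271% in Optc+ cells and 24.98% in Mural cells, the latter close to the markers' 23.8%.

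Levels of Col4a1 and of the EC markers in Rods varied between libraries. Col4a1 in Rods was at 64.1 CPM in eNOS+/+ replicate 1 but 1286 CPM in eNOS+/+ replicate 3, and at 202, 567 and 139 CPM in the eNOS-/- replicates. The EC markers moved with it, from 10.3% of their EC level in eNOS+/+ replicate 1 to 46.0% in replicate 3. In eNOS+/+ replicate 3 Col4a1 in Rods stood at 50.2% of its EC level, and in eNOS+/+ replicate 1 at 3.13%. The part of free RNA in these levels was not tested.

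**Figure D3:**
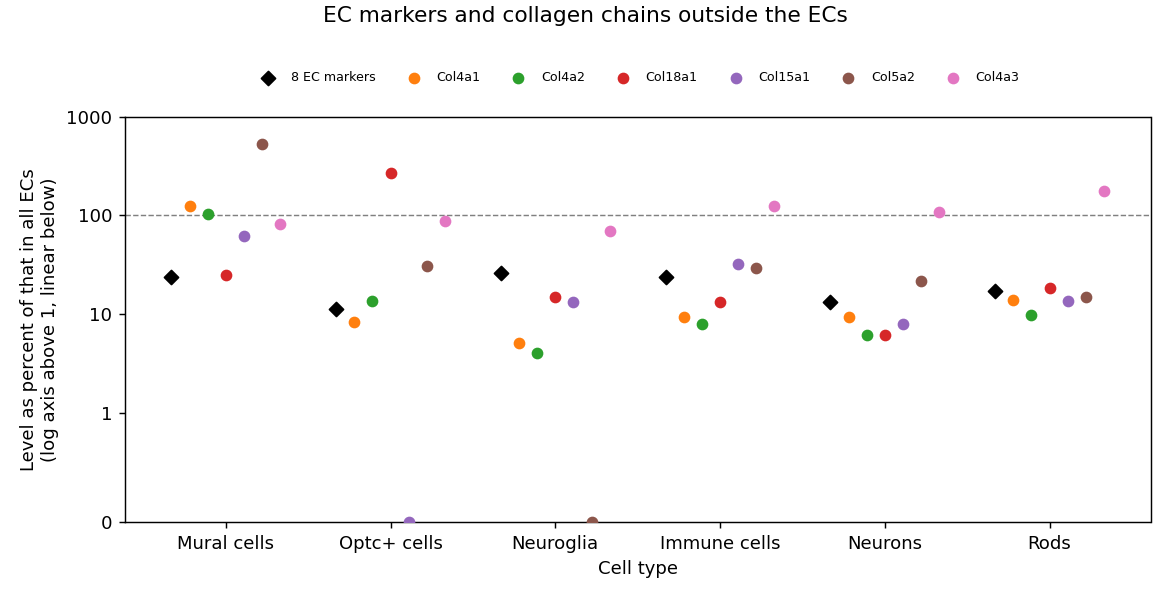
Level in each cell type outside the ECs as a percent of that in all ECs, both pooled over replicates (symmetric log axis). Points give the summed 8 EC markers and 6 collagen chains. In Mural cells Col4a1 and Col4a2 lie at 124 and 103%, above the markers at 23.8%, and in Optc+ cells Col18a1 lies at 271%, while Col4a1 and Col4a2 lie at or below 13.8% in all other types.

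Mural cells had the highest levels of the fibril-forming chains Col1a2, Col3a1, Col1a1 and Col5a2. Col3a1, the chain of type III collagen in vessel walls, was at 199 and 659 CPM in eNOS+/+ replicates 2 and 3 and at 461, 859 and 394 CPM in the eNOS-/- replicates. Col1a2, a chain of type I collagen, was at 149 and 659 CPM against 290.0, 724 and 477 CPM. Col5a2, which helps type I fibrils to form, was at 149 and 347 CPM against 237, 172 and 207 CPM. The genotypes overlapped for all 3 chains, and eNOS+/+ replicate 2 was lowest for each. In Optc+ cells, where 4 of 5 fibroblast markers had UMIs (466 to 2445 CPM summed, Mfap5 at 0), Col1a2 was at 119, 0 and 215 CPM against 155 and 164 CPM.

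In ECs the same chains were low. Col1a2 was 83.1 times as high in Mural cells as in Structural ECs (median of 5 replicates, range 10.6 to 523), and Col5a2 was 4.00 times as high. Col1a1, the partner of Col1a2, was at 248 and 278 CPM in Mural cells of the eNOS+/+ replicates and at 264, 98.1 and 10.4 CPM in those of the eNOS-/- replicates. The UMIs of the partners did not keep 1 ratio over cell types: Col1a1 had 51 UMIs to 156 of Col1a2 in Mural cells (24.6%, Wilson 19.3 to 30.9) and 5 to 34 in Optc+ cells, but 106 to 33 in ECs (76.3%, 68.5 to 82.6). A high Col1a1 share was not particular to ECs, since Rods had 15 UMIs to 1. Those 15 lay in 15 cells, and the 23 of Tip ECs in 23 cells.

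Fibroblast markers were set beside these chains because fibroblasts make the same collagens. Of the 91 Mural cells with a UMI of Col1a2 or Col3a1, 97.8% carried a mural marker and 4 cells a fibroblast marker, and of the Mural cells without such a UMI, 96.7% and 0 cells did. Over the Mural cells, 3 of 5 fibroblast markers had a UMI, with Lum and Mfap5 at 0, and the summed level was 0 to 34.7 CPM in eNOS+/+ and 10.4 to 172 CPM in eNOS-/- replicates. The share of Mural cells with Col1a2 or Col3a1 was 23.3 and 19.5% in eNOS+/+ replicates 2 and 3 and 47.2, 61.7 and 50.9% in the eNOS-/- replicates. The median depth of these cells moved with it, from 603 and 466 to 1333, 1305 and 1213 UMIs, as did the summed mural markers, from 15199 and 16528 CPM to between 26874 and 27783 CPM. The part of depth in the shares was not tested, and the CPM values of both genes overlapped.

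Col8a1, a network-forming chain known from vessel walls and the cornea, was a further Mural chain. Col8a1 was at 49.6 and 69.4 CPM in eNOS+/+ replicates 2 and 3 and at 171, 269.9 and 41.5 CPM in the eNOS-/- replicates. The genotypes overlapped through eNOS-/- replicate 3. Col8a1 also appeared in Immune cells, at 138 and 425 CPM in eNOS-/- replicates 1 and 2 and at 0 in the other replicates with 10 or more cells. All 30 of those UMIs, and all 12 UMIs of Col9a3 in Immune cells, lay in the 16 of 216 Immune cells that carried a pigment epithelium marker, 5 in eNOS-/- replicate 1 and 11 in replicate 2.

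Optc+ cells carried the chains of vitreous collagen. Col9a1, a chain of type IX collagen, was at 4810.5, 5631 and 6557 CPM in the eNOS+/+ replicates and at 6336 and 5527 CPM in eNOS-/- replicates 1 and 2, a mean of 5772 ± 696 (SD, n = 5). That was the highest level of any member in any cell type, and the genotypes overlapped. Col9a3 was at 831, 659 and 657 CPM against 621 and 267 CPM, and Col9a2, the remaining type IX chain, at 416, 297 and 328 CPM against 155 and 61.6 CPM.

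Col2a1, the type II chain that these type IX chains coat, was at 535, 722 and 623 CPM in Optc+ cells of the eNOS+/+ replicates and at 435 and 247 CPM in the eNOS-/- replicates. Col23a1, a transmembrane collagen, was at 653, 829 and 509.6 CPM against 839 and 349 CPM. Col11a1, which forms the core of type II fibrils, was at 178, 276 and 238 CPM against 404 and 288 CPM. Col4a5 was at 416, 361 and 249 CPM against 466 and 370 CPM. Levels thus overlapped between genotypes for Col23a1 and Col4a5 and did not for Col2a1, Col9a2, Col9a3 and Col11a1.

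Neuroglia held several of the same chains, some lower than in Optc+ cells and some not. Col9a1 was at 1379, 144 and 837 CPM in the eNOS+/+ replicates and at 1356 and 2384 CPM in eNOS-/- replicates 1 and 2, below Optc+ cells in 5 of 5 replicates (median Optc+-to-Neuroglia ratio 4.67, range 2.32 to 39.2). Col2a1 was at 961, 862 and 538 CPM against 835 and 567 CPM, above Optc+ cells in 4 of 5 replicates (median ratio 0.556). Col23a1 was at 794, 431 and 598 CPM against 313 and 417 CPM, and its median ratio of 0.853 did not separate the types. Col18a1, with a median ratio of 15.6, and Col9a3, with 2.67, were higher in Optc+ cells in 5 of 5.

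After drawing down, Col9a1 was found in 77.5% of Optc+ cells and 42.9% of Neuroglia against 0.95% of Rods (79.6, 40.8 and 1.19% undrawn). Mural cells had 0 UMIs of Col9a1 in 214 cells, which allows a level of up to 9.55 CPM. Across the 10 cell types, on the same log scale, Col2a1 was most like Col23a1 (Pearson 0.95) and Col9a1 (0.91), again as a description. Neuroglia had 0 UMIs of Col1a2, Col3a1 and Col5a2, which allows up to 22.0 CPM of each.

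**Figure D4:**
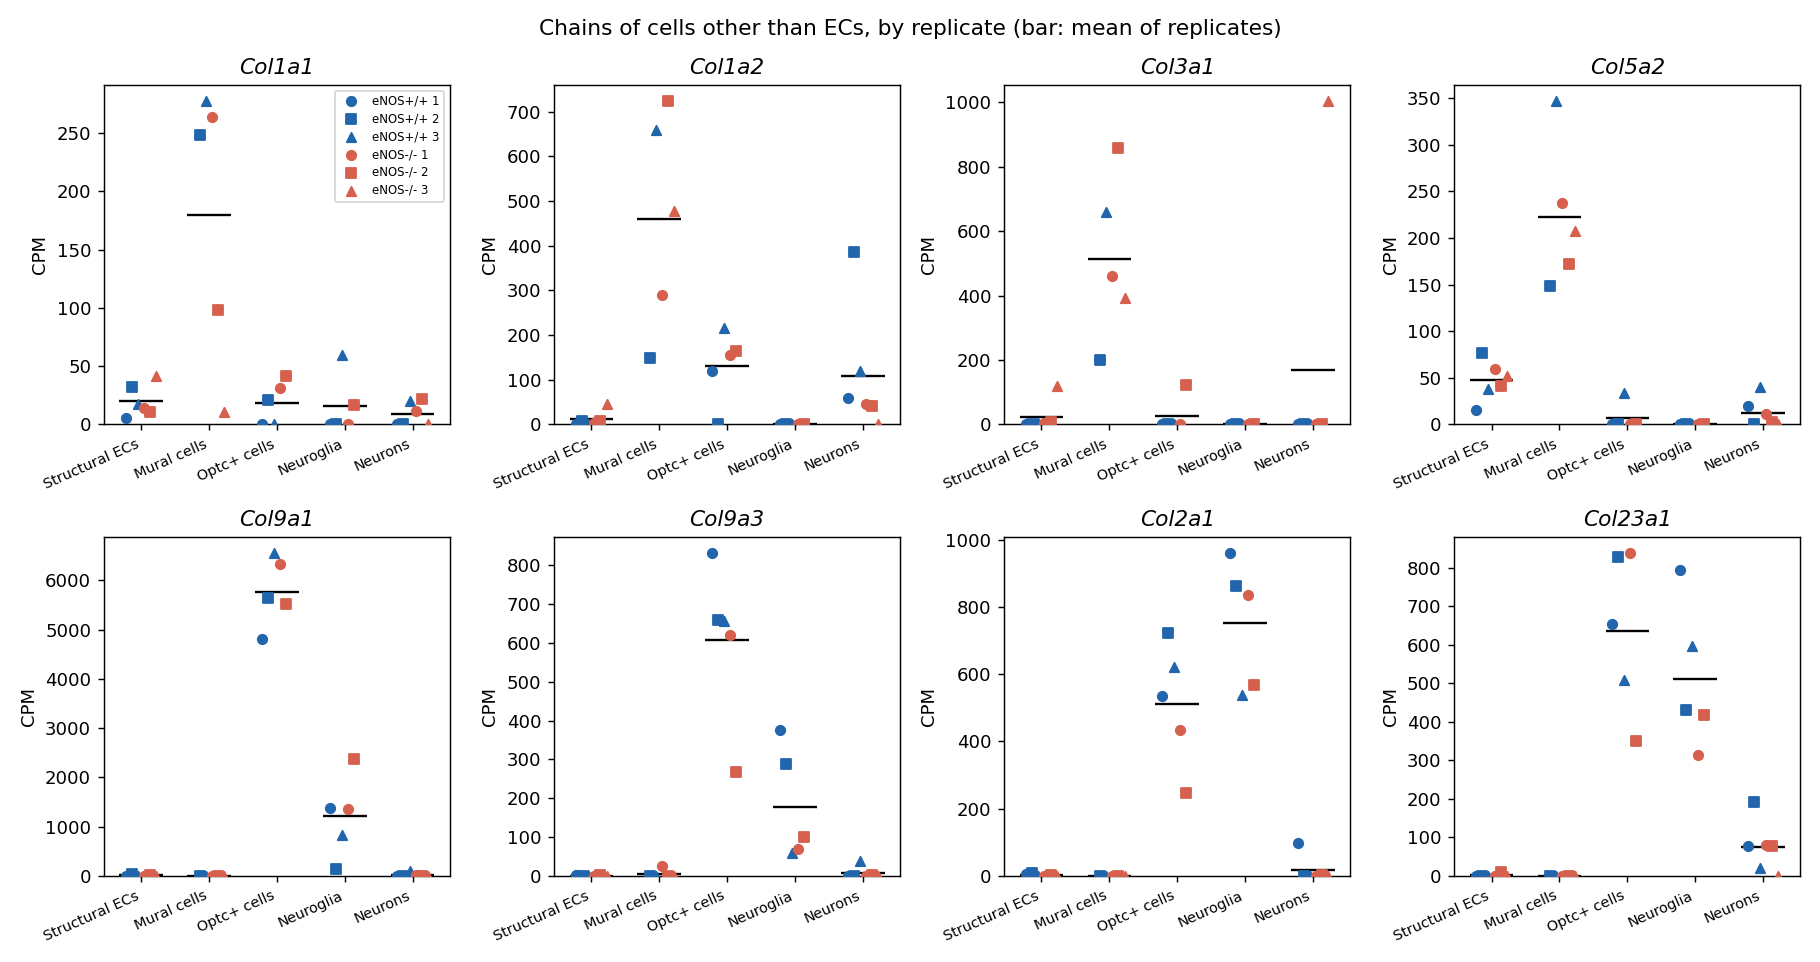
CPM of Col1a1, Col1a2, Col3a1, Col5a2, Col9a1, Col9a3, Col2a1 and Col23a1 (1 panel each, linear axis from 0) in Structural ECs, Mural cells, Optc+ cells, Neuroglia and Neurons, with 1 point per replicate of at least 10 cells (blue eNOS+/+, red eNOS-/-) and a bar at the mean. Types I, III and V stand highest in Mural cells and types II, IX and XXIII in Optc+ cells and Neuroglia, and the 1 high Col3a1 point in Neurons is eNOS-/- replicate 3.

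In Neurons, Col1a2 was at 59.2, 386 and 119 CPM in the eNOS+/+ replicates and at 45.4, 41.4 and 0 CPM in the eNOS-/- replicates, on 30 UMIs in all. Col23a1 was at 79.0, 193 and 19.8 CPM against 79.5, 77.4 and 0 CPM. The genotypes overlapped for Col23a1 and did not for Col1a2. Of the 982 genes tested in Neurons, 5.30% were lower without overlap. Col1a2 itself had too few UMIs to pass the filter on low counts in Neurons and was not tested there. Its 386 CPM in eNOS+/+ replicate 2 was 2 UMIs in 11 cells. Its 0 in eNOS-/- replicate 3 came from 10 cells with 5975 UMIs of all genes.

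The other members had fewer than 100 UMIs, and apart from the values of Col4a5, Col11a1 and Col9a2 above they are given by their totals. Between 20 and 99 UMIs were Col4a5 (98), Col27a1 (94), Col11a1 (89), Col9a2 (80), Col5a3 (72), Col28a1 (60), Col13a1 (44), Col22a1 (40) and Col5a1 (37). Below them were Col6a3 (18), Col4a6 (16), Col26a1 (13), Col6a1 and Col17a1 (12 each), Col4a4 and Col16a1 (11 each), Col20a1 and Col11a2 (8 each), Col6a2 (7), Col25a1 (6), Col12a1 (5), Col14a1 and Col8a2 (3 each). The chains of type VI collagen, common in connective tissue, were thus each below 20 UMIs.

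To ask whether collagen RNA differed between genotypes within a cell type, UMIs were summed per replicate and tested with edgeR's quasi-likelihood test over all genes of the cell type, with Benjamini-Hochberg adjustment. Col4a1 in all ECs had a log2 fold change (eNOS-/- over eNOS+/+) of 0.01 (standard error (SE) 0.22, 95% interval -0.45 to 0.47, adjusted p = 0.997), at 2512 ± 444 against 2544 ± 341 CPM (SD, n = 3 each). Col4a2 was at -0.20 (SE 0.20, -0.62 to 0.22, adjusted p = 0.964) and Col18a1 at -0.17 (SE 0.25, -0.70 to 0.36, adjusted p = 0.976). The replicates overlapped for all 3, and the intervals leave room for changes in either direction.

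In all ECs, 9 of the 38 members passed the filter on low counts. With the adjusted p limit of 0.05, neither edgeR nor DESeq2 called any of them (0 of 9), where 0.0211% of all 9483 genes were called by edgeR and 0.0316% by DESeq2. At an unadjusted p under 0.05 there were 0 members, against 5.78% of genes. The members' median log2 fold change was -0.07 against 0.01 for all genes. None of the 9 members separated the genotypes without overlap, against 5.39% of genes higher and 5.00% lower.

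The EC subtypes gave the same counts. In Tip ECs 0 of 7 members tested were called by edgeR (background 0.0181%) or DESeq2 (0.0363%), in Structural ECs 0 of 7 (0.0264% and 0.0396%) and in Proliferative ECs 0 of 6 (0.0217% by both). At an unadjusted p under 0.05 there were 0 members in each, against 4.95, 5.52 and 6.38% of genes. Log2 fold changes of Col4a1 were -0.08 (SE 0.26), 0.14 (SE 0.24) and 0.01 (SE 0.23) in these subtypes. Those of Col4a2 were -0.23, -0.12 and -0.20, and those of Col18a1 were -0.44 (95% interval -1.04 to 0.16), -0.18 and -0.03.

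No member separated the genotypes in Tip ECs (4.94% of genes higher and 5.41% lower did) or Structural ECs (5.74 and 4.79%). In Proliferative ECs none was higher (5.36% of genes) and Col15a1 was lower, at 58.0, 67.5 and 71.0 CPM in eNOS+/+ against 43.4, 49.0 and 25.6 CPM in eNOS-/- replicates (1 of 6 members, against 5.43% of genes). Its log2 fold change there was -0.57 (SE 0.38, adjusted p = 0.881 from edgeR). A test of whether the genotype difference differs between EC subtypes, with a term for each replicate, called 0 of 7 members and 0 of 7019 genes (0%), and at an unadjusted p under 0.05 there were 1 member, Col15a1 (adjusted p = 1.00 from edgeR), and 3.43% of genes.

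In Mural cells, with 2 replicates against 3, 0 of 9 members were called by edgeR or DESeq2 (0% of genes by both), and 0 had an unadjusted p under 0.05 against 5.78% of genes. Col4a1 was at a log2 fold change of 0.31 (SE 0.29), Col4a2 at -0.01 (SE 0.32) and Col18a1 at -0.51 (SE 0.71). The largest was that of Col8a1, 1.47 (SE 0.98, adjusted p = 0.824, edgeR), with a 95% interval from -0.56 to 3.51. None of the 9 was free of overlap between genotypes (11.2% of genes higher and 14.7% lower were), and the members' median was -0.01 against 0.08 for all genes.

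Optc+ cells were the type with members at an unadjusted p under 0.05, 2 of 10 tested against 11.1% of genes. None of the 10 was called after adjustment by edgeR (2.06% of genes) or DESeq2 (1.25%). Col9a2 was lower in eNOS-/- replicates, at 108 ± 66.2 CPM (n = 2) against 347 ± 61.3 CPM (n = 3), a log2 fold change of -1.64 (SE 0.68, adjusted p = 0.287, edgeR). It ran from -2.28 without eNOS-/- replicate 1 to -0.98 without eNOS-/- replicate 2. Col4a1 had a log2 fold change of 1.55 (SE 0.63, adjusted p = 0.287, edgeR), although its levels overlapped, at 356, 149 and 45.3 CPM against 652 and 144 CPM. Without overlap between genotypes were Col18a1, Col2a1, Col9a3 and Col9a2, all lower in eNOS-/- replicates (4 of 10, against 15.3% of genes), and Col11a1, higher (1 of 10, against 11.4%).

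Most Col4a1 UMIs of eNOS-/- replicate 1 lay in a single cell. In that replicate, 1 Optc+ cell of 4680 UMIs held 18 of the 21 Col4a1 UMIs, 9 of the 14 Col4a2 UMIs and 32 of the 57 EC marker UMIs, and 1 UMI of Col9a1. Without that replicate the log2 fold change of Col4a1 was 0.11. EC markers in Optc+ cells summed to 416 to 521 CPM in the eNOS+/+ and 801 to 1770 CPM in the eNOS-/- replicates, and their part in the value beyond that cell was not tested.

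Pigment epithelium markers also moved with genotype in Optc+ cells. Of the 5 markers, Pmel and Tyr had UMIs and Rpe65, Ttr and Rgr were at 0, and the sum was at most 22.6 CPM in the eNOS+/+ and 3349 to 4162 CPM in the eNOS-/- replicates, while the 4 ciliary markers fell from 5078 to 8790 CPM to 2712 to 2826 CPM. Leaving out the 10 of 157 Optc+ cells with a pigment marker was a step chosen after the data had been seen. It gave Col9a1 at 8004 and 7746 CPM in the eNOS-/- replicates against 4810.5 to 6551 CPM in the eNOS+/+ replicates, which no longer overlapped. The share of all genes without overlap was not counted in this setting. With all Optc+ cells, 11.4% of genes were higher and 15.3% lower without overlap. Without those cells Col18a1 stood at 1373 and 1127 CPM against 1402 to 1959.9 CPM, still without overlap. Col2a1, at 549 and 347 CPM against 535 to 722 CPM, now overlapped. Col9a3 overlapped too, at 785 and 376 CPM against 643 to 831 CPM. Col9a2, at 196 and 86.7 CPM against 297 to 416 CPM, did not, and its log2 fold change was -1.29 (adjusted p = 0.626, edgeR).

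In Neuroglia 0 of 3 members tested were called by edgeR or DESeq2 (0% by both) and 0 had an unadjusted p under 0.05 (5.93% of genes). Col23a1 was lower without overlap (1 of 3 members, against 13.1% of genes) and none was higher (9.32%). In Neurons 0 of 1 and in Rods 0 of 4 members were called by either tool (0% and 0.0320% of genes by edgeR, 0% by DESeq2), with 0 at an unadjusted p under 0.05 (4.18 and 1.19%). None of these tested members was free of overlap, where 5.50% of genes higher and 5.30% lower were in Neurons, and 6.76% and 10.5% in Rods. In Immune cells no member passed the filter, and Cones had too few cells for a test.

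**Figure D5:**
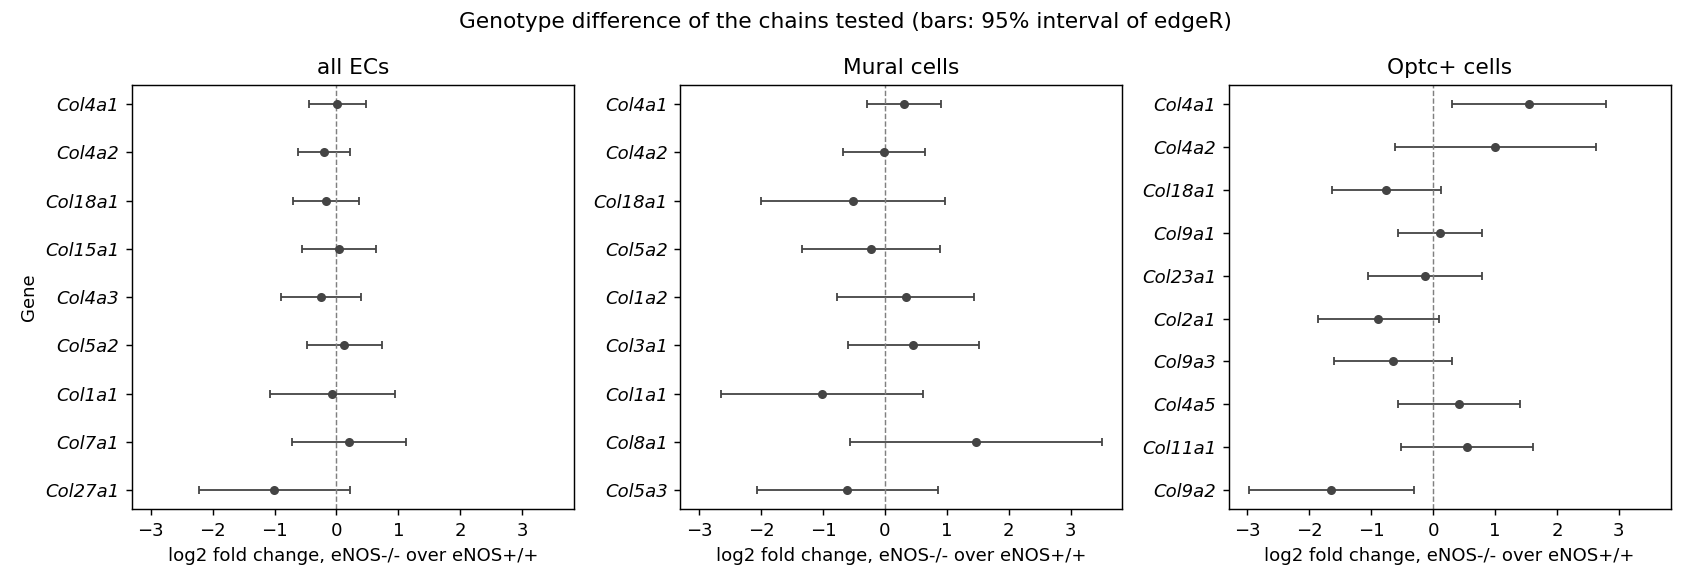
Log2 fold change (eNOS-/- over eNOS+/+) of each collagen chain tested in all ECs, Mural cells and Optc+ cells, with its 95% interval from edgeR and a line at 0. Of the intervals shown, those that leave out 0 are of Col4a1 (0.30 to 2.79) and Col9a2 (-2.98 to -0.31) in Optc+ cells, and no chain passed the adjusted limit.

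The Col4a1 share of Col4a1 and Col4a2 UMIs in ECs by replicate was 59.5, 69.7 and 65.0% for eNOS+/+ against 68.8, 68.3 and 67.8% for eNOS-/-. The means, 64.7 ± 5.06% and 68.3 ± 0.495% (SD, n = 3), differed by 3.55 percentage points, with p = 0.4 in a two-sided exact permutation test whose smallest possible p is 0.1. Replicate 1 of eNOS+/+ lay lowest and eNOS+/+ replicate 2 highest, so the eNOS-/- replicates fell inside the eNOS+/+ range.

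Col3a1 in ECs was called when low counts were not filtered out, with a log2 fold change of 3.79 in all ECs (adjusted p = 0.00149, edgeR) and 3.52 in Structural ECs (adjusted p = 0.00167). By replicate it was at 0, 0 and 2.63 CPM in all ECs of eNOS+/+ and at 2.16, 4.95 and 65.5 CPM in those of eNOS-/-. Of its 53 EC UMIs, 34 lay in the 131 of 5925 ECs with at least 2 UMIs of the 9 mural markers, and those cells were 22.2% of the ECs of eNOS-/- replicate 3 and 0.4 to 1.85% elsewhere. Without them, replicate 3 stood at 5.68 CPM and the log2 fold change was 3.25 (adjusted p = 0.818, edgeR). Without eNOS-/- replicate 3 it was 1.53 (adjusted p = 0.820). In Structural ECs the values were 2.86 (adjusted p = 0.795, edgeR) and 1.05 (adjusted p = 0.753). Summed mural markers in Structural ECs were at 3898 CPM in that replicate and at most 89.1 CPM in the others.

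Genes that act on collagen were read from the same fits. Of 22 genes for collagen modification, folding and export, 18 were tested in all ECs and 0 were called, with 2 at an unadjusted p under 0.05 against the 5.78% of all genes. Crtap, part of the complex that hydroxylates collagen prolines, was at 79.0 ± 8.12 CPM in eNOS+/+ and 48.2 ± 17.2 CPM in eNOS-/- ECs (SD, n = 3 each), with a log2 fold change of -0.81 (SE 0.27, adjusted p = 0.824, edgeR). Colgalt1, a collagen galactosyltransferase, was at -0.48 (adjusted p = 0.858, edgeR). Crtap was below 0 in each EC subtype too, at -0.84 in Structural, -0.75 in Tip and -0.88 in Proliferative ECs. Neither was called. Of the 18 genes in all ECs, Crtap and Colgalt1 were lower without overlap between genotypes (5.00% of all genes were) and P4ha1, a subunit of the collagen prolyl hydroxylase, was higher (0.41, against 5.39% of all genes). Crtap levels overlapped in Structural ECs. Serpinh1, the collagen chaperone HSP47, was at 1130 ± 229 and 1045 ± 188 CPM.

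The other lists had 0 genes called and 0 at an unadjusted p under 0.05 in all ECs. Among 4 genes tested of procollagen cleavage and cross-linking, those of smallest p were Tgm2 (0.24), a transglutaminase, and Loxl2 (0.17), a lysyl oxidase. Among 5 collagen receptors they were Adgrg1 (0.54) and Itga2 (-0.28), and among 7 genes of collagen cleavage and its inhibitors Mmp14 (-0.42), a membrane-bound collagenase, and Timp3 (0.37), all as log2 fold changes. In single cell types, besides Crtap, the genes at an unadjusted p under 0.05 in edgeR were these. Loxl2 in Mural cells was at 543 ± 66.2 CPM (n = 2) against 1026 ± 198 CPM (n = 3), a log2 fold change of 1.02 (SE 0.39, adjusted p = 0.750, against 5.78% of genes). Itgb1, a receptor chain, was at 1.48 in Optc+ cells (adjusted p = 0.128, against 11.1%), at 178 against 510 CPM. In ECs Itgb1 was at 1267 against 1330 CPM. EC markers in Optc+ cells were also higher in the eNOS-/- replicates (801 to 1770 against 416 to 521 CPM), and their part in the Itgb1 value was not tested. P4ha1 was at 0.76 in Structural ECs (adjusted p = 0.868, against 5.52%). Mmp14 was at -0.71 in Proliferative ECs (adjusted p = 0.759, against 6.38%). The list medians in all ECs were -0.11, 0.07, 0.07 and -0.05 against 0.01 for all genes.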

How the data were processed

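Per the labels and the study's methods, Drop-seq reads of CD31-enriched retinal cells were aligned with kb-python to GRCm38 and clustered with Seurat; cells with fewer than 100 genes or over 10% mitochondrial UMIs were removed by the authors. The deposited table holds raw UMI counts per gene and cell, with the authors' cell types and a percent of mitochondrial UMIs per cell. All deposited cells were used. UMI counts were summed per cell type and replicate (617246 to 3350799 UMIs per replicate in all), kept for at least 10 cells, and given as CPM, so low counts limit the precision of rare types. Genotypes were compared with edgeR 4.0.16 in R 4.3.3 (quasi-likelihood test, filterByExpr, TMM, Benjamini-Hochberg over all genes of a cell type), with DESeq2 1.42.0 as an alternative; the others were RLE scaling, no filter, a replicate block, no mitochondrial genes, cells of at least 500 UMIs, 1 cell per barcode family, at least 20 cells, and each replicate left out. Shares of cells have Wilson intervals, and a count of 0 was given an upper limit of 3 counts.

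On data simulated for each cell type with 200 changed genes, changes of 2 on the log2 scale were recovered for 182 genes in all ECs, 96 in Mural cells and 151 in Optc+ cells, and changes of 1 for 49, 0 and 2. The authors' doublet calls marked 100% of cells as singlets. Chains with at least 100 UMIs were described by name; the genotype comparison named every chain with p under 0.05 and Col4a1, Col4a2 and Col18a1, and of each list of collagen-acting genes the called ones or those of smallest p. Levels of Col4a5 and Col11a1, the named pairs with Col4a4 and Col4a6, Serpinh1, P4ha1, Loxl2 in Mural cells and Col3a1 in ECs were added after their values were seen. So were Itgb1 in Optc+ cells and Mmp14 in Proliferative ECs. The chains and lists were chosen with earlier results of these data known. Pooling of 3 to 5 retinas means that the spread between replicates is between pools.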

Additional observations from a re-analysis of the deposited data

Results flagged for a closer look

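In Neurons, Col3a1 was at 1004.2 CPM in eNOS-/- replicate 3 and at 0 in the other 5 replicates, so that this replicate stood far from the rest. It rested on 10 cells and 6 UMIs, all of them in the 2 of 10 cells that had at least 2 UMIs of the 9 mural markers, which summed to 6862 CPM there and to at most 376 CPM in the eNOS+/+ replicates. The part of mural RNA in this value was not tested. Of the 29 groups of replicate levels checked in this way, 1 stood out, and chance alone flags about 1 in 20 groups.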

How the results depend on the processing

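Under all alternatives to the genotype test except 1, the count of collagen chains called stayed at 0. Without the filter on low counts, 1 chain (Col3a1) was called in all ECs and 1 in Structural ECs, and with no filter it was no longer called without eNOS-/- replicate 3 or without ECs that carry mural markers (both settings were chosen after seeing the data). Over all genes, 84 rather than 2 were called in all ECs with no filter, and 0 to 78 with 1 replicate left out. Small changes turned sign. Col4a1 in all ECs ran from -0.10 to 0.12 with 1 replicate left out, and was -0.049 without the mural-marker ECs and -0.031 with no filter as well. Col18a1 in all ECs ran from -0.51 to 0.018 and in Structural ECs from -0.65 to 0.016, and with no filter and no eNOS-/- replicate 3 was 0.061 and 0.091. Col4a1 in Tip ECs ran from -0.28 to 0.15, Col4a1 and Col18a1 in Proliferative ECs from -0.17 to 0.12 and from -0.21 to 0.16, and Col4a2 in Mural cells from -0.21 to 0.11. Col4a1 in Proliferative ECs was -0.010 in cells with at least 500 UMIs and -0.019 with 1 cell per barcode family. Col4a2 in Mural cells was 0.33 with no filter and 0.0097 in cells with at least 500 UMIs. Col4a1 in Optc+ cells ran from 0.11 to 2.37, lowest without eNOS-/- replicate 1. The cause of the other sign changes was not tested. In all ECs, with values centered within genotype, same-numbered replicates correlated at 0.276, -0.09 and 0.261. Differently numbered ones correlated at -0.337 to 0.223. These values do not settle whether the numbers pair samples, and the main test did not pair them. With a replicate block 0 chains were called in each cell type tested, and Col4a1 in all ECs was at 0.019. Cones had too few cells for a test. Depth limits all rare types.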
